A study of Homo sapiens with 6 samples.

Results

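The 10 abundant long noncoding RNAs were followed in KO52, a human acute myeloid leukemia cell line whose labelled genotype is CEBPA double mutant. The 10 genes were chosen by name, their Ensembl identifiers were mapped to symbols, and all 10 were among the 15395 genes tested, out of 60612 gene identifiers in the count tables. The groups were EV, dnCEBP and dnFOS, with 2 RNA-seq libraries each. All carried a doxycycline-inducible lentiviral vector in this single cell line, were treated with doxycycline and were sorted for GFP. EV was the GFP-expressing empty vector, dnCEBP expressed a dominant negative peptide that pairs with C/EBP transcription factors and blocks their DNA binding, and dnFOS expressed the matching peptide against the AP-1 family. The labels give no treatment time for these libraries and do not say whether the 2 libraries of a group came from separate cultures, so p-values measure only the spread between these libraries.

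The 10 RNAs fall into 4 kinds. MALAT1 is a nuclear RNA concentrated in nuclear speckles, where splicing factors gather, and NEAT1 is the RNA around which paraspeckles assemble. KCNQ1OT1 is an unspliced antisense RNA of the imprinted KCNQ1 domain, made from the paternal chromosome. NORAD is a mainly cytoplasmic RNA that binds Pumilio proteins such as PUM2, and OIP5-AS1 (also called Cyrano) is a conserved RNA with a paired site for the microRNA miR-7. GAS5, SNHG1, SNHG5, SNHG8 and ZFAS1 are snoRNA host genes, whose introns carry small nucleolar RNAs that guide chemical modification of ribosomal RNA. The spliced host transcripts are exported and mostly degraded by nonsense-mediated decay, and host genes of this class start with a run of C and T bases, as ribosomal protein genes do.

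The libraries held between 9862994 and 27663179 assigned counts, with the dnFOS libraries (14583615 and 9862994) below the other 4 (21681121 to 27663179). The small cytoplasmic RNA RN7SL1 took 6.12% and 4.3% of counts in the dnFOS libraries and between 7.75% and 7.94% elsewhere. A gene identifier with no symbol (ENSG00000281181) took 0.285% and 1.32% in dnFOS and at most 0.163% elsewhere. The part of depth and of these shares in the dnFOS differences was not tested. All 8 myeloid blast markers exceeded 1 CPM (counts scaled to a library of 1000000) in every library, with a summed level of 1128 and 1073 CPM in EV, 971 and 938 with dnCEBP, and 971 and 917 with dnFOS. Of 6 lymphoid markers 2 did, with a summed level of 118 and 136 CPM in dnFOS and 144 to 166 CPM elsewhere. Of 6 erythroid and platelet markers 1 did, with 106 and 118 CPM in dnFOS and 182 to 233 CPM elsewhere. That 1 was the platelet integrin ITGA2B, which fell by 0.83 (SE 0.092, adjusted p 2.94e-07) in dnFOS against EV. Of 6 stromal and epithelial markers 1 did, with 31.8 and 39.9 CPM in dnFOS and 27.8 to 30.3 CPM elsewhere. These sums thus lay apart in dnFOS for 3 of the 4 lists, and their part in the results was not tested. MS4A1, HBA1 and CDH1 had at most 3 counts in each library.

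The 10 RNAs together held between 0.393% and 0.535% of a library's counts, and MALAT1 alone between 0.183% and 0.314%. Levels were compared between genes as CPM per kilobase of annotated exon, where CPM were scaled with TMM factors. In EV, MALAT1 was highest at 284 ± 101 (SD, n = 2) CPM per kilobase. SNHG8 followed at 199 ± 6.87, GAS5 at 166 ± 5.35 and SNHG5 at 145 ± 4.34 CPM per kilobase. These 3 snoRNA host genes ranked next to MALAT1 and above the other 6 RNAs. ZFAS1 stood at 82.6 ± 1.61, SNHG1 at 46.7 ± 1.80 and NORAD at 45.4 ± 0.353 CPM per kilobase. OIP5-AS1 (11.9 ± 0.329) and NEAT1 (9.82 ± 2.55) came next, and KCNQ1OT1, whose single annotated transcript spans 91667 bases, was lowest at 0.238 ± 0.0275 CPM per kilobase. In EV the libraries of SNHG1 and NORAD overlapped, as did those of OIP5-AS1 and NEAT1, and every other neighbouring pair in the order was apart. In dnCEBP no neighbouring pair overlapped, and NORAD ranked above SNHG1. In dnFOS NORAD stood a further place up and overlapped with ZFAS1, with 70.2 ± 6.66 for NORAD and 66.3 ± 1.98 CPM per kilobase for ZFAS1. The order of the hosts depends on the length used: divided by the longest transcript in place of all exons, SNHG5 came to 393 and GAS5 to 356 CPM per kilobase in EV, above MALAT1 at 288, and SNHG8 to 273.

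**Figure D1:**
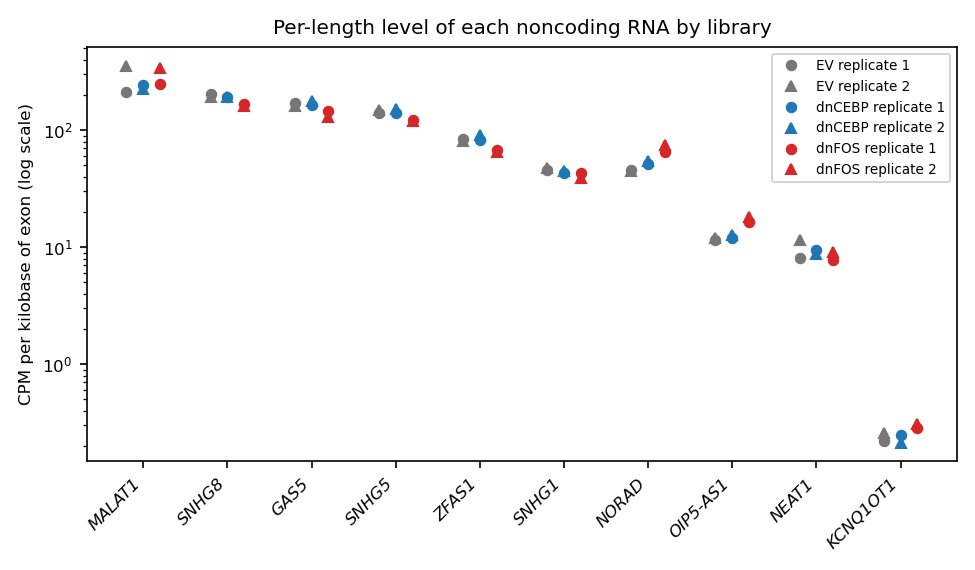
Level of the 10 noncoding RNAs (x axis, ordered by the EV mean) as CPM per kilobase of exon (y axis, log scale) in each library, with grey for EV, blue for dnCEBP and red for dnFOS. Levels run from 0.238 for KCNQ1OT1 to 284 CPM per kilobase for MALAT1 in EV, and in dnFOS NORAD lies above its EV and dnCEBP points.

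Whether blocking C/EBP or AP-1 binding moved these RNAs was asked in 3 comparisons. Against EV, dnCEBP changed none of the 10 in edgeR's quasi-likelihood test at an adjusted p under 0.05, where 1.07% of all genes were called (0.624% as higher and 0.448% as lower). NORAD alone had an unadjusted p under 0.05 there, and DESeq2 and limma-voom also called 0 of the 10. Against EV, dnFOS raised NORAD and OIP5-AS1 and lowered GAS5, SNHG5, SNHG8 and ZFAS1, so 6 of 10 were called where 15.0% of all genes were. By direction, 2 of 10 were higher where 7.24% of all genes were, and 4 of 10 were lower where 7.76% were. The median log2 fold change of the 10 was -0.20 in dnFOS against EV, where that of all genes was 0.00. In dnFOS against dnCEBP 5 of 10 were called, 2 higher and 3 lower, where 14.7% of all genes were called, 6.83% as higher and 7.84% as lower. The 2 comparisons with dnFOS share its libraries. Groups of 2 libraries often lay apart: the libraries of the 2 groups did not overlap for 2 of 10 RNAs in dnCEBP against EV, where this held for 42.8% of all genes, for 8 of 10 in dnFOS against EV (56.7% of all genes) and for 9 of 10 in dnFOS against dnCEBP (54.5%).

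**Figure D2:**
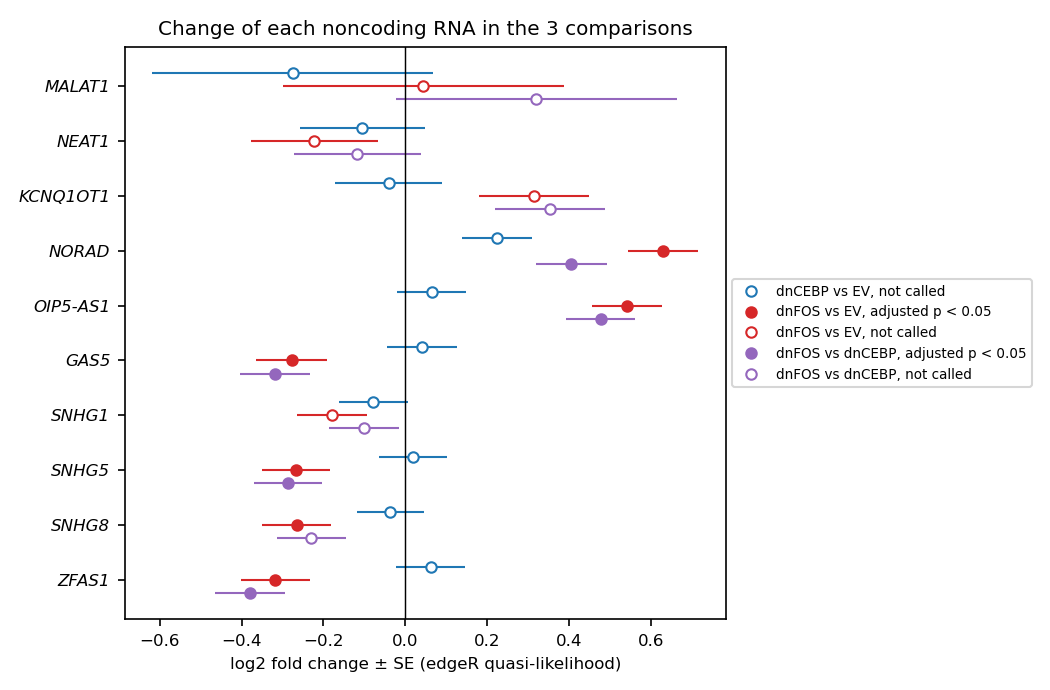
Log2 fold change with its SE (x axis, edgeR) of each noncoding RNA (y axis) in dnCEBP against EV (blue), dnFOS against EV (red) and dnFOS against dnCEBP (purple). Filled points passed an adjusted p under 0.05: NORAD and OIP5-AS1 lie to the right in both dnFOS comparisons, 4 host genes lie to the left in dnFOS against EV, and no blue point is filled.

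NORAD (ENSG00000260032), a single-exon gene at chr20:36045622-36050960 on the minus strand of GRCh38, showed the clearest change. It stood at 244 and 241 CPM in EV, 276 and 290 with dnCEBP, and 350 and 400 with dnFOS. Each dnFOS library was above every other library, and each dnCEBP library was above both EV libraries. In dnFOS against EV the log2 fold change was 0.63 (SE 0.086), a 1.55-fold rise, with an adjusted p of 9.45e-06, and it stayed called with every alternative setting and with each library left out in turn (0.51 to 0.73). In dnFOS against dnCEBP NORAD rose by 0.41 (SE 0.086, adjusted p 0.00144). The difference between dnCEBP and EV was 0.22 (SE 0.086) with an adjusted p of 0.27.

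NORAD is known for repeated copies of the Pumilio site, and its sequence shows them. In the 5339-base annotated transcript the letters TGTANATA, searched on the transcript strand, occurred 15 times, or 2.81 per kilobase. Over the longest transcripts of 27903 genes with at least 1000 bases the rate was 0.116 per kilobase, and 6 of those genes held 15 or more. The letters at the free position N were T, A or C, and the 5′-most site of each form is shown, with the site in capitals and bases counted from the transcript's 5′ end.
NORAD bases 761 to 768: tggaaggcctgTGTATATAatatgaaaaag
NORAD bases 1241 to 1248: aaatcacatttTGTAAATAcctttttgtta
NORAD bases 1451 to 1458: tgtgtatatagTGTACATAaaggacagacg
The flanks of the 3 differ. Among 4 RNA-binding partners listed for NORAD and OIP5-AS1 (PUM2, RBMX, KHDRBS1 and ELAVL1), none was called in any of the 3 comparisons, and the smallest adjusted p was 0.0565, for PUM2 in dnFOS against dnCEBP. At an unadjusted p under 0.05 there were 0 of 4 in dnCEBP against EV, 2 in dnFOS against EV and 1 in dnFOS against dnCEBP. The most abundant partner RBMX, a nuclear RNA-binding protein, ranged from 283 to 335 CPM over the 6 libraries.

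OIP5-AS1 (ENSG00000247556, chr15:41283990-41309737, plus strand) moved like NORAD in dnFOS. It stood at 147 and 153 CPM in EV, 153 and 162 with dnCEBP, and 209 and 228 with dnFOS. The dnFOS libraries lay apart from the other 4, while EV and dnCEBP overlapped. The rise against EV was 0.54 on the log2 scale (SE 0.085, adjusted p 5.88e-05), or 1.46-fold, and that against dnCEBP 0.48 (SE 0.085, adjusted p 0.000202). It too was called with every alternative setting and with each library left out, although removing a trend over GC content and length brought the change against EV down to 0.33.

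The miR-7 site of OIP5-AS1 is shown beside the microRNA, since it is the part of this RNA best known. The 8829-base transcript held 3 copies of GTCTTCC, the complement of the seed of miR-7, or 0.34 per kilobase where the rate over all genes was 0.087. The site at bases 2887 to 2893 is in capitals in the transcript and the seed (bases 2 to 8) is in capitals in the microRNA.
OIP5-AS1: taagaacaacaaaatcaccaatGTCTTCCa
hsa-miR-7-5p: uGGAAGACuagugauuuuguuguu
The microRNA itself was not measured in these libraries.

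**Figure D3:**
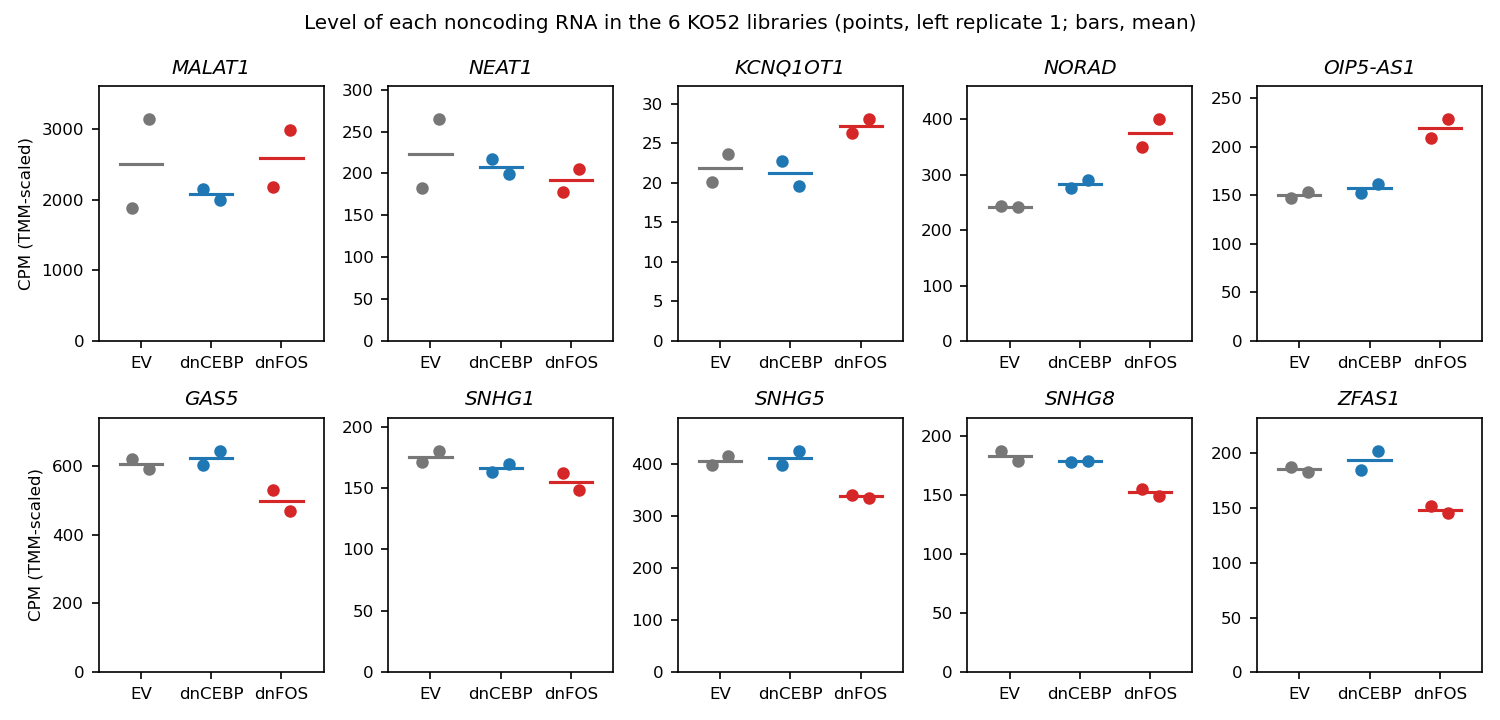
CPM (y axis, from 0) of each noncoding RNA in EV, dnCEBP and dnFOS (x axis), with a point for each library and a bar at the mean of the 2. NORAD and OIP5-AS1 are highest in both dnFOS libraries, the 5 snoRNA host genes are lowest there, and the EV libraries of MALAT1 (1880 and 3136 CPM) span the points of the other groups.

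The 5 snoRNA host genes were all lowest in dnFOS. GAS5 (ENSG00000234741, chr1:173863900-173868882, minus strand), the growth arrest-specific host of box C/D snoRNAs, stood at 618 and 591 CPM in EV, 601 and 643 with dnCEBP, and 528 and 469 with dnFOS. SNHG5 (ENSG00000203875, chr6:85660950-85678748, minus strand) stood at 397 and 414 CPM in EV, 398 and 425 with dnCEBP, and 340 and 334 with dnFOS. In both genes the EV and dnCEBP libraries overlapped and the dnFOS libraries lay below all of them. SNHG8 (ENSG00000269893, chr4:118278709-118279823, plus strand) stood at 188 and 179 CPM in EV, 179 and 179 with dnCEBP, and 156 and 149 with dnFOS. ZFAS1 (ENSG00000177410, chr20:49278178-49295738, plus strand), host of the SNORD12 family, stood at 188 and 183 CPM in EV, 185 and 202 with dnCEBP, and 152 and 146 with dnFOS. SNHG1 (ENSG00000255717, chr11:62851988-62855914, minus strand) stood at 171 and 180 CPM in EV, 163 and 170 with dnCEBP, and 162 and 148 with dnFOS. For SNHG8 and ZFAS1 the dnFOS libraries again lay apart below the rest, and for SNHG1 the dnFOS values were below those of both groups by a narrow margin.

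The 4 called falls were small and close in size. Against EV, ZFAS1 fell by 0.32 on the log2 scale (SE 0.085, adjusted p 0.0105), GAS5 by 0.28 (SE 0.086, adjusted p 0.0273), SNHG5 by 0.27 (SE 0.083, adjusted p 0.0277) and SNHG8 by 0.27 (SE 0.083, adjusted p 0.0293). SNHG1 had a log2 fold change of -0.18 (SE 0.085) and an adjusted p of 0.165. Against dnCEBP, ZFAS1 fell by 0.38 (adjusted p 0.00234), GAS5 by 0.32 (adjusted p 0.0112) and SNHG5 by 0.29 (adjusted p 0.018), while SNHG8 (-0.23, adjusted p 0.0624) and SNHG1 (-0.10, adjusted p 0.487) were not called. In dnCEBP against EV the 5 lay between -0.08 and 0.06. The calls against EV rest on the scaling: with library totals alone, which shift the median of all genes to 0.10 and the split of calls from 1115 higher and 1194 lower to 1905 higher and 676 lower, the 4 genes lay between -0.22 and -0.17 and none was called (adjusted p 0.0587 to 0.148). Leaving out EV replicate 1 or dnFOS replicate 2 also ended all 4 calls, with the direction kept (-0.30 to -0.20), and leaving out EV replicate 2 ended those of GAS5, SNHG5 and SNHG8 (-0.32, -0.25 and -0.31). After removing a trend over GC content and length, SNHG8 (-0.21) and ZFAS1 (-0.18) were no longer called and SNHG1 was (-0.26, adjusted p 0.0178). Against dnCEBP, GAS5 and SNHG5 lost their calls with library totals alone (-0.20 and -0.16), without dnCEBP replicate 2 (-0.27 and -0.24) and without dnFOS replicate 2 (-0.24 and -0.27), and DESeq2 called SNHG8 (adjusted p 0.0416).

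**Figure D4:**
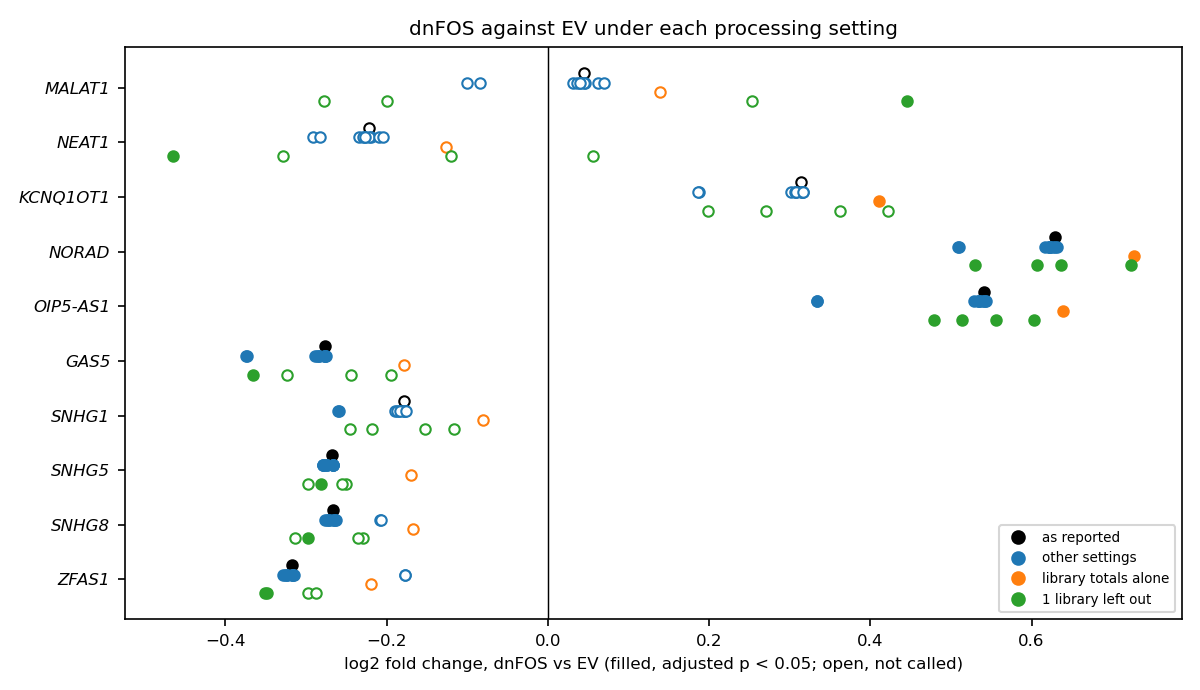
Log2 fold change in dnFOS against EV (x axis) of each noncoding RNA (y axis) as reported (black), with other settings (blue), with library totals alone (orange) and with 1 library left out (green), where filled points passed an adjusted p under 0.05. All points of NORAD and OIP5-AS1 are filled and to the right, the host genes stay to the left of 0 with open orange points, and MALAT1 and NEAT1 have points on both sides of 0.

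At the RefSeq start, 4 of the 5 host genes share a feature that the choice of genes did not use. The 30 bases around the RefSeq start (GRCh38.p14), from 12 before it, hold a run of 5 or more C or T bases within 5 bases of the start in 4 of the 5 hosts. The run is in capitals and is written along the gene's strand.
SNHG1, chr11:62855868-62855897: gggagattcgTTCTCatttttctactgctc
SNHG5, chr6:85678716-85678745: gcgcacttcggTCTTTTacgtcggccttcg
SNHG8, chr4:118278750-118278779: gcctcggCCTTTCacattcgggaagcgtcg
ZFAS1, chr20:49278630-49278659: aagccattcgTTCTTTCgcgtctgcggtgc
GAS5 transcript, bases 1 to 30: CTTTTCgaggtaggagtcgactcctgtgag
The RefSeq entry for GAS5 starts 163 bases upstream of the GENCODE gene and has no such run there. For GAS5 the start of its longest GENCODE transcript is shown instead, and it is not counted among the 4. The letters of its run were searched for in its 29 GENCODE transcripts, and 6 begin with them. The starts of its other transcripts are not shown, so this line does not show that GAS5 shares the feature. The GENCODE starts of the other 4 hosts also differ from RefSeq and were not searched. A run of this kind is common, in 35.6% of 34796 RefSeq promoters, and MALAT1 has one of 11 bases at 1 of its starts, while NORAD and OIP5-AS1 have none. In the windows from 250 bases before to 50 after the start, on both strands, neither the AP-1 letters TGANTCA (in 7.7% of promoters) nor the C/EBP letters TTGCNNAA (in 10.5%) occurred for the 8 RNAs with a RefSeq window. NEAT1 and KCNQ1OT1 had no entry.

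Other genes of the same pathway were read from fixed lists. Of 23 other noncoding snoRNA host genes tested (25 listed), 3 fell in dnFOS against EV and none rose, with a median of -0.02. Of all genes 7.76% were called lower there and 7.24% higher. EPB41L4A-AS1 fell by 0.67 (SE 0.129, adjusted p 0.000679) from 43.9 and 41.0 CPM in EV to 30.93 and 22.04 in dnFOS. SNHG7 fell by 0.35 (SE 0.095, adjusted p 0.0135) and SNHG15 by 0.29 (SE 0.086, adjusted p 0.0193), and of the 3 EPB41L4A-AS1 alone stayed called with library totals alone. Without EV replicate 1 (-0.21 and -0.26) and without dnFOS replicate 2 (-0.28 and -0.29) neither SNHG7 nor SNHG15 was called, nor was SNHG15 without EV replicate 2 (-0.33). After removing a trend over GC content and length, SNHG7 stood at -0.05 (adjusted p 0.79). In dnCEBP against EV 0 of the 23 were called by edgeR and 4 had an unadjusted p under 0.05. The fall thus covered 4 of 5 hosts among the 10 RNAs and 3 of 23 of the others, a difference that was not tested. Cytosolic ribosomal protein genes, a list added after values were seen and so given with no test, had a median of -0.21 in dnFOS against EV. They lay below 0 for 80 of 83, and the share of all genes below 0 is not given here. The median of all genes was 0.004 there and 0.10 with library totals alone, a scaling under which this list was not read.

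The snoRNAs in these hosts could hardly be read from the tables. The annotation places 12 snoRNA genes inside SNHG1, SNHG5, SNHG8 and ZFAS1, and 10 had no count in any library. It places none inside GAS5, so the snoRNAs of GAS5 are not covered here. All 10 overlap an annotated exon of their host on the same strand. The 2 that do not are SNORD12B, with 0 to 4 counts, and SNORD12C, with 23 to 63 counts per library. SNORD12C, which lies in an intron of ZFAS1, had a log2 fold change of 0.02 (SE 0.365) in dnFOS against EV.

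The core proteins of snoRNPs and the decay factors that act on host transcripts were read from fixed lists too. Of 8 snoRNP proteins 2 were lower in dnCEBP against EV, where 0.448% of all genes were. In dnFOS against EV 1 was higher and 1 lower, where 7.24% and 7.76% of all genes were. In dnFOS against dnCEBP 3 were higher and 1 lower, where 6.83% and 7.84% were. These counts were not tested against the shares. Of 8 snoRNP proteins, GAR1, an H/ACA core protein, fell by 0.65 (SE 0.155, adjusted p 0.0305) in dnCEBP against EV and rose by 0.61 (SE 0.153, adjusted p 0.00651) in dnFOS against EV. FBL, the box C/D methyltransferase fibrillarin, fell by 0.42 (SE 0.091, adjusted p 0.0153) in dnCEBP, and NOP10, an H/ACA protein, fell by 0.27 (SE 0.095, adjusted p 0.0498) in dnFOS. The 8 thus moved in both directions, with medians of -0.06 and -0.01 in the 2 comparisons with EV. Of 14 nonsense-mediated decay factors 1 was higher in dnFOS against EV, the kinase SMG1 at 0.27 (SE 0.089, adjusted p 0.0374), where 7.24% of all genes were. In dnCEBP against EV 0 of the 14 were called by edgeR, with 2 at an unadjusted p under 0.05. In dnFOS against dnCEBP 2 of the 14 were higher. Most of the calls against EV were not stable to the settings. With library totals alone NOP10 (-0.17, adjusted p 0.213) and GAR1 in dnCEBP (adjusted p 0.0517) were not called, nor with DESeq2 (adjusted p 0.0757 and 0.0542), and NOP10 also failed with limma-voom (adjusted p 0.0898). After removing a trend over GC content and length NOP10 (-0.20, adjusted p 0.0895) and SMG1 (0.18, adjusted p 0.125) were not called, and with no low-count filter SMG1 had an adjusted p of 0.0507. By library, the call of NOP10 was lost without any 1 of the 4 (-0.36 to -0.20), that of SMG1 without either EV library or dnFOS replicate 2 (0.16 to 0.32), that of GAR1 in dnFOS without dnFOS replicate 2 (0.38), and those of GAR1 and FBL in dnCEBP without EV replicate 2 (-0.61 and -0.35) or dnCEBP replicate 2 (-0.49 and -0.35), for GAR1 also without EV replicate 1 (-0.68).

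MALAT1 (ENSG00000251562, chr11:65497688-65506516, plus strand) varied more between the libraries of a group than between groups. It stood at 1880 and 3136 CPM in EV, 2148 and 1997 with dnCEBP, and 2183 and 2989 with dnFOS. EV replicate 2 and dnFOS replicate 2 were high and the other 4 libraries lay between 1880 and 2183 CPM. The EV libraries differed 1.67-fold, and the SE of its fold changes was 0.343 against 0.083 to 0.155 for the other 9 RNAs in dnFOS against EV. Against EV the log2 fold change was -0.28 for dnCEBP (adjusted p 0.846) and 0.04 for dnFOS (adjusted p 0.956), with an SE of 0.343 that exceeds either difference. A single EV library decided both comparisons: without EV replicate 1 dnCEBP was lower by 0.60 (adjusted p 0.0103), and without EV replicate 2 dnFOS was higher by 0.45 (adjusted p 0.0353). In dnFOS against dnCEBP the difference was 0.32 (SE 0.343, adjusted p 0.654), and a fit on those 4 libraries alone called it (0.30, adjusted p 0.0289).

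NEAT1 (ENSG00000245532, chr11:65422774-65445540, plus strand), the neighbour of MALAT1 on chromosome 11, followed it in EV. It stood at 183 and 265 CPM in EV, 217 and 199 with dnCEBP, and 178 and 206 with dnFOS, so all groups overlapped. Against EV the log2 fold change was -0.10 for dnCEBP (SE 0.154, adjusted p 0.859) and -0.22 for dnFOS (SE 0.155, adjusted p 0.405). Without EV replicate 1 the latter was -0.47 and called (adjusted p 0.0069), and without EV replicate 2 it was 0.06 (adjusted p 0.822). The table counts the short and long NEAT1 isoforms together.

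The proteins that build the bodies of MALAT1 and NEAT1 were measured in the same libraries. Of 11 paraspeckle proteins 2 rose in dnFOS against EV, where 7.24% of all genes did, and none fell, where 7.76% did. They were NUDT21 (0.44, SE 0.086, adjusted p 0.000814) and CPSF6 (0.40, SE 0.089, adjusted p 0.00268), partners in the cleavage factor that sets 3′ ends of transcripts. Of 13 nuclear speckle and SR splicing proteins 3 rose and none fell: SRSF1 (0.61, SE 0.089, adjusted p 2.4e-05), SRSF11 (0.41, SE 0.092, adjusted p 0.00277) and SRSF10 (0.30, SE 0.089, adjusted p 0.0188). The medians of the 2 lists were 0.15 and 0.05. After removing a trend over GC content and length, SRSF1 alone of these 5 stayed called. Without dnFOS replicate 2 the calls of CPSF6 (0.29), SRSF11 (0.28) and SRSF10 (0.21) were lost, without EV replicate 1 those of SRSF11 (0.32) and SRSF10 (0.25), and without EV replicate 2 that of SRSF10 (0.35). The paraspeckle core proteins NONO and SFPQ, named here after their values were seen, stood at -0.01 and 0.18 (adjusted p 0.937 and 0.152). In dnCEBP against EV none of either list was called by edgeR. At an unadjusted p under 0.05 there were 5 of 11 and 2 of 13, with no share of all genes to set beside them. In dnFOS against dnCEBP 5 of 11 and 3 of 13 were called higher, where 6.83% of all genes were, and 0 of either list lower, where 7.84% were. These counts were not tested against the shares.

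KCNQ1OT1 (ENSG00000269821, chr11:2608328-2699994, minus strand) was the least abundant of the 10. It stood at 20.1 and 23.6 CPM in EV, 22.8 and 19.6 with dnCEBP, and 26.3 and 28.0 with dnFOS, from 290 to 615 counts per library. Both dnFOS libraries were above the other 4, but the log2 fold change of 0.31 (SE 0.134) against EV had an adjusted p of 0.117, and that of 0.35 (SE 0.134) against dnCEBP an adjusted p of 0.0742. With library totals alone both were called (0.41, adjusted p 0.0425, and 0.47, adjusted p 0.0186), while removing a trend over GC content and length brought them down to 0.19 (adjusted p 0.326) and 0.16 (adjusted p 0.377). Without EV replicate 1 the former was 0.20 (adjusted p 0.563). Of 10 tested genes of the imprinted KCNQ1 domain 2 fell in dnFOS against EV, where 7.76% of all genes did, and none rose, where 7.24% did. CARS1, a cysteinyl-tRNA synthetase at the edge of the domain, fell by 0.53 (SE 0.118, adjusted p 0.00243), or by 0.46 without EV replicate 1 (adjusted p 0.0574). CDKN1C, the maternally expressed cell cycle inhibitor p57, fell by 0.73 (SE 0.234, adjusted p 0.0318) from 6.21 and 6.13 CPM in EV to 3.97 and 3.38 in dnFOS, and its call was lost with DESeq2, limma-voom, library totals and the fit without the GC and length trend (adjusted p 0.0631 to 0.191) and without any 1 of the 4 libraries (-0.87 to -0.64). In dnCEBP against EV 0 of the 10 were called by edgeR and 1 had an unadjusted p under 0.05.

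Genes on the opposite strand were examined because the sources used here do not state whether counting used strand, so reads of overlapping pairs cannot be told apart. SLC3A2, which encodes the heavy chain of amino acid transporters and starts 188 bases from SNHG1 without overlapping it, fell in dnFOS against EV by 1.08 (SE 0.093, adjusted p 1.46e-09). It stood at 175 and 159 CPM in EV, 140 and 137 with dnCEBP, and 85.9 and 71.9 with dnFOS, a 0.474-fold level beside 0.883-fold for SNHG1. ZBTB37, a zinc finger gene that starts 800 bases from the GAS5 start, overlaps GAS5 by 801 bases with 0 shared exon bases. ZBTB37 had a log2 fold change of 0.33 (SE 0.116, adjusted p 0.0529), with the sign opposite to that of GAS5. It was called with library totals alone (0.42, adjusted p 0.0142) and without EV replicate 2 (0.45, adjusted p 0.0428), and stood at 0.15 (adjusted p 0.357) after removing a trend over GC content and length. ZNFX1 shares 249 exon bases with ZFAS1 (11.1% of its exons) and had a log2 fold change of 0.09 (SE 0.117, adjusted p 0.679), or 0.19 with library totals alone. OIP5 shares 470 exon bases with OIP5-AS1 (3.71%) and had 0.39 (SE 0.18, adjusted p 0.15) from 117 to 215 counts a library, and KCNQ1, which contains KCNQ1OT1 in full, had 0.40 (SE 0.268, adjusted p 0.356) from 64 to 149 counts. The value for KCNQ1 ran from 0.06 without dnFOS replicate 2 to 0.72 without dnFOS replicate 1. The difference between the members of a pair was not tested.

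**Figure D5:**
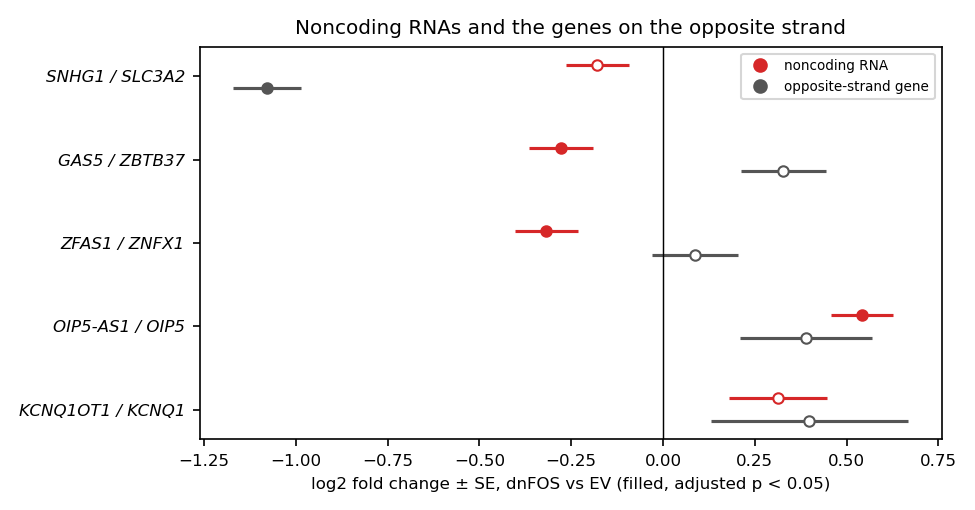
Log2 fold change with its SE in dnFOS against EV (x axis) of 5 noncoding RNAs (red) and the gene on the opposite strand (grey), with filled points for an adjusted p under 0.05. SLC3A2 lies at -1.08 beside SNHG1 at -0.18, and ZBTB37 and ZNFX1 lie to the right of 0 beside GAS5 and ZFAS1 to the left.

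The genes most like 3 of the RNAs over the 6 libraries were ranked by Pearson's r of log2 CPM among 8119 genes with a mean of at least 10 CPM, as a description with no test, since the points share library depth and group. For MALAT1 they were TRNT1 (r = 0.981), which adds CCA ends to transfer RNAs, NIPBL (0.974), a cohesin loader, and METTL14 (0.972), a subunit of the m6A methyltransferase. Each was higher in EV replicate 2 and dnFOS replicate 2 than in the other 4 libraries, with TRNT1 at 25.7 and 26.4 against 20.3 to 21.9 CPM. For NEAT1 they were OTUD3 (0.955), ATXN2 (0.951) and CCNL1 (0.949), a cyclin linked to splicing. For GAS5 they were SYS1 (1.00), HEBP2 (0.999) and SNRPD2 (0.999), a core protein of spliceosomal snRNPs. An r over 0.9 was reached by 40 genes for MALAT1, 13 for NEAT1 and 570 for GAS5.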

How the data were processed

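RNA-seq covered 6 KO52 libraries, 2 each of EV, dnCEBP and dnFOS, grouped by their titles. Per the labels, total RNA was depleted of ribosomal RNA, amplified with 15 PCR cycles and sequenced as 75-base read pairs. The deposited values were raw counts per Ensembl gene. The submitters' processing notes name Trimmomatic, HISAT2, featureCounts, Subread and hg38, while the annotation release, strand setting and treatment of reads shared by genes are not given in the sources used here. Totals ranged from 9862994 to 27663179 counts, so 3 counts correspond to 0.108 to 0.304 CPM.

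Symbols, coordinates and lengths came from GENCODE 29 on GRCh38, which matched 58394 of 60612 identifiers, and start windows and the microRNA from RefSeq GRCh38.p14. Promoter windows were found for 8 of the 10 RNAs. Genes passed edgeR's filterByExpr (minimum count 10), and 15395 were tested with edgeR 4.0.16 in R 4.3.3 by quasi-likelihood F tests with TMM scaling, all 6 libraries in the fit (3 residual degrees of freedom), and Benjamini-Hochberg adjustment over all genes tested. A gene was called when its adjusted p lay under 0.05. Counts at an unadjusted p under 0.05 are given without the share of all genes at that threshold, so they cannot be read as more than that share. Alternatives were DESeq2 1.42.0, limma-voom 3.58.1, other scalings and filters, the 4 libraries compared, a replicate block, removal of a trend over GC content and length, and each library left out. Libraries of a group differed beyond sampling noise (chi-square per degree of freedom 7.99 to 14). Each was counted as a sample, although this spread does not show that they came from separate cultures. The fit was tested on simulated counts.

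The members and gene lists were chosen with earlier results of these data known, as were the tests. The text names all 10 RNAs. From each other list it names at most 3 called genes per direction with the largest change in each comparison with EV, or the most abundant gene where none was called, and it names genes overlapping a member or starting within 1 kb of it. For MALAT1, NEAT1 and GAS5 it names the 3 most alike genes outside the lists. Called marker genes under this rule were MPO, CSF3R and ANPEP (lower in dnCEBP), ANPEP, MPO and PTPRC, NKG7 and CD3D, and ITGA2B (lower in dnFOS), and of the stromal and epithelial markers EPCAM had the highest level.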

Additional observations from a re-analysis of the deposited data

How the results depend on the processing

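In dnCEBP against EV, 0 of the 10 RNAs were called with each of the 9 alternatives that kept all libraries of the comparison and had no replicate block, and 0 to 1 with a library left out. In dnFOS against EV the count of 6 became 3 with library totals alone and 2 to 6 with a library left out. In dnFOS against dnCEBP the count of 5 was 3 to 5 with a library left out. Of the other listed genes, 2 were called in dnCEBP against EV, against 4 with no low-count filter, 1 with library totals alone, 4 without the GC and length trend, 1 with DESeq2 and 0 to 5 with a library left out. In dnFOS against EV 13 were called, against 8 without the GC and length trend and 5 to 13 with a library left out, and in dnFOS against dnCEBP 17, against 27 with library totals alone and 6 to 16 with a library left out. The lists with calls held 23 other host, 11 paraspeckle, 13 speckle, 10 KCNQ1 domain, 14 decay and 8 snoRNP genes tested. Marker genes were not counted. Of all genes 1.07% were called in dnCEBP against EV, 15.0% in dnFOS against EV and 14.7% in dnFOS against dnCEBP. The counts were not tested against these shares, so they do not show an excess over all genes.

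Changes that turned sign had not been called. Without the GC and length trend they were MALAT1 in dnFOS against EV (-0.10) and KCNQ1OT1 (0.0226), GAS5 (-0.0174) and SNHG5 (-0.0134) in dnCEBP against EV. With library totals alone they were NEAT1 (0.00308) and SNHG1 (0.021) in dnFOS against dnCEBP and SNHG5 (-0.00513) in dnCEBP against EV. With a library left out, MALAT1 ranged from -0.60 to 0.14, NEAT1 from -0.35 to 0.18, KCNQ1OT1 from -0.155 to 0.0755, GAS5 from -0.00842 to 0.0889, SNHG5 from -0.0287 to 0.0655 and ZFAS1 from -0.00413 to 0.126 in dnCEBP against EV, and MALAT1 from -0.28 to 0.45 and NEAT1 from -0.465 to 0.0564 in dnFOS against EV. The cause was not tested.

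Per kilobase of the longest transcript, EV levels became 17.0 for OIP5-AS1, 356 for GAS5, 63.4 for SNHG1, 393 for SNHG5, 273 for SNHG8 and 172 CPM per kilobase for ZFAS1.

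Over all genes tested, deviations of same-numbered libraries correlated weakly (0.0174 to 0.0879), and a pairing in single genes was not tested. Over those genes a replicate block raised the calls from 165 to 488 in dnCEBP against EV. It raised them from 2309 to 3172 in dnFOS against EV and from 2259 to 3013 in dnFOS against dnCEBP. A replicate block left 0 RNAs called in dnCEBP against EV and 6 in dnFOS against EV and gave 7 in dnFOS against dnCEBP, and of the other listed genes it called 7 in dnCEBP against EV. With the block and without the GC and length trend, 4 were called there, and MALAT1 (-0.0838), KCNQ1OT1 (0.0195), GAS5 (-0.0158) and SNHG5 (-0.0135) changed sign in the comparisons named above.

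KCNQ1OT1 had the fewest counts of the 10 RNAs (290 to 615 per library), and MALAT1 the largest SE in dnFOS against EV (0.343).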
